A study of Mus musculus with 24 samples.

Results

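The STAT and JAK genes of the deposited table were taken by symbol, as the rows for Stat2, Stat3, Stat4, Stat5a, Stat5b, Stat6, Jak1, Jak2 and Tyk2. These are 9 of 35770 gene symbols, 6 of them STAT genes and 3 of them JAK genes. All 9 passed the filter on low values, which left 13661 genes to be tested. The rule used names only and no measured value, but the members were chosen with earlier results of these data known.

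Janus kinases sit on the inner side of cytokine receptors and phosphorylate STAT proteins once a cytokine binds. Phosphorylated STATs pair, enter the nucleus and switch on target genes. In macrophages, STAT6 is the factor of the IL-4 and IL-13 response that marks alternative activation, STAT2 works in the ISGF3 complex of the type I interferon response, STAT3 serves IL-6 and IL-10, STAT5 serves GM-CSF and related cytokines, and STAT4 serves IL-12. Since these proteins are switched by phosphorylation, transcript levels measure how much mRNA is present and not whether a pathway is active.

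The macrophages were primary bone marrow-derived macrophages (BMDMs) from C57BL/6 mice, grown in M-CSF. They received control media or 75% conditioned media (CM) from LL2 cells, a Lewis lung carcinoma line, that were WT, KEAP1 KO or NRF2 KO, with 100 nM CDDO-Me or vehicle for 24 h. CDDO-Me is a synthetic oleanane triterpenoid that activates NRF2, and KEAP1 is the protein that holds NRF2 down. The knockouts were in the cancer cells that conditioned the media and not in the macrophages, so the deleted genes could not be checked in these libraries. The 24 libraries form 8 groups of 3: media/vehicle, WT/vehicle, KEAP1 KO/vehicle, NRF2 KO/vehicle, and the same 4 media with CDDO-Me. The study calls the 3 samples of a group independent without saying whether they came from separate mice, so the p-values measure the spread between these samples, which may be technical. The age and sex of these mice, and whether each knockout line was 1 clone, are not given in the sources used here. The library names carry 1 label for each knockout, without saying what the label stands for. All groups shared the M-CSF culture, and CM differs from control media both in what the cancer cells released and in what they used up.

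Values are given in TPM, the share of transcripts in parts of a fixed total, which are scaled per transcript length, so that levels may be compared between genes. Levels are given as deposited, and differences on the log2(scaled TPM + 1) scale after TPM were scaled between libraries. Whether groups overlapped, and the order of group means, were judged on levels as deposited, before scaling. The depth of a library cannot be had from TPM. Between 15702 and 18993 symbols lay above 0. The 2 lowest libraries were the replicate 3 libraries of NRF2 KO/vehicle (15702 symbols) and NRF2 KO/CDDO-Me (16299 symbols), against 17817 or more in the others. They stood apart for the STAT and JAK genes too, and the log2 differences printed for these genes with NRF2 KO CM are therefore given with and without them. The 12 macrophage markers were above 0 in every group and summed to between 22619 and 41059.5 TPM per library. Defining markers of T cells, B cells, mast cells and epithelial cells were at or near 0, with a highest library of 0.190 TPM for Cd3e, 0.145 for Ms4a1, 0.122 for Fcer1a and 0.272 for Epcam. Markers of other types were not. The 13 fibroblast markers summed to between 417 and 4453 TPM per library, and Clec9a, a dendritic cell gene, had means of 104.7 and 60.3 TPM in WT CM and KEAP1 KO CM with CDDO-Me. Their part in the STAT and JAK values was not tested.

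All genes lie on GRCm39 as annotated by GENCODE vM39. Stat2 (chr10:128106352-128128735, plus strand) and Stat6 (chr10:127477821-127496862, plus strand) share chromosome 10. Stat5b (chr11:100671556-100741589, minus strand), Stat5a (chr11:100750177-100776065, plus strand) and Stat3 (chr11:100775924-100830450, minus strand) are neighbours on chromosome 11. Stat4 lies at chr1:52026307-52151423, plus strand, Jak1 at chr4:101008838-101122487, minus strand, Jak2 at chr19:29228677-29290505, plus strand, and Tyk2 at chr9:21015363-21042689, minus strand. The canonical transcripts have between 19 exons (Stat5b) and 25 exons (Jak1 and Tyk2). Exons of Stat5a and Stat3 overlap on opposite strands, and Stat5a and Stat5b are close paralogs.

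Kallisto assigns reads by stretches of 31 bases, so the share of such stretches that other genes hold bears on how well each gene is separated. Counting both strands, Stat5b shared 10.9% of its 31-base stretches with Stat5a, and Stat5a shared 9.79% with Stat5b. Over all other genes the shares were 11.1% for Stat5b and 16.2% for Stat5a. Of the Stat4 stretches, 39.3% lay in transcripts of other annotated genes, with Gm31812 alone holding 28.8% of the Stat4 stretches. For Jak1, 16.3% lay in Raver2. The share was 1.66% for Stat2, 9.07% for Stat3, 0.926% for Stat6, 2.87% for Jak2 and 7.06% for Tyk2. Levels of Stat4, Stat5a, Stat5b and Jak1 are less certain for this reason. The stretches were counted over GENCODE vM39 transcripts, so the shares may differ in the cDNA index that the authors used.

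The 300 bases before the start of the canonical transcript are shown for Stat2, Stat3, Jak2 and Tyk2, the genes on which most of the results turn, 5′ to 3′ on the strand of the gene. Capitals mark matches to 3 patterns that carry the names of STAT binding motifs. These are an ISRE core (GAAANNGAAA, or TTTCNNTTTC on the other strand) and GAS with a spacer of 3 (TTCNNNGAA) or 4 bases (TTCNNNNGAA), both of which read the same on either strand.
Stat2, chr10:128106052-128106351, plus strand: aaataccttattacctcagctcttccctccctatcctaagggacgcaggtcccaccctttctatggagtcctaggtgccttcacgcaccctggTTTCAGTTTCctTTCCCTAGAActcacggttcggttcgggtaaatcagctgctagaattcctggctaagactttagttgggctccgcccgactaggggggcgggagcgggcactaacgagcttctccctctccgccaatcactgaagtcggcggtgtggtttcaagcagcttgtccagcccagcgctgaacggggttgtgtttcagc
Stat3, chr11:100830428-100830727, minus strand: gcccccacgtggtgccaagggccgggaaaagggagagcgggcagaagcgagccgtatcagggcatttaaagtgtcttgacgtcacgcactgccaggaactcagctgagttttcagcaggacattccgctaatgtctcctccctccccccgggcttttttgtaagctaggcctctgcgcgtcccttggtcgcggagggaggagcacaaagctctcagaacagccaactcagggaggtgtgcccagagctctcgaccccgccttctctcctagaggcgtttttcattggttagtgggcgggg
Jak2, chr19:29228377-29228676, plus strand: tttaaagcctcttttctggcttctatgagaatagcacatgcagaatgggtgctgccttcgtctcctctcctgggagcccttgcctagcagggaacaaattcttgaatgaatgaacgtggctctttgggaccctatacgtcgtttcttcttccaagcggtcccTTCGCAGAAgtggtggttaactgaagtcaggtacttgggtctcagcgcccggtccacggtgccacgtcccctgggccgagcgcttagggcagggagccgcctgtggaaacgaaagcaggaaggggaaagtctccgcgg
Tyk2, chr9:21042690-21042989, minus strand: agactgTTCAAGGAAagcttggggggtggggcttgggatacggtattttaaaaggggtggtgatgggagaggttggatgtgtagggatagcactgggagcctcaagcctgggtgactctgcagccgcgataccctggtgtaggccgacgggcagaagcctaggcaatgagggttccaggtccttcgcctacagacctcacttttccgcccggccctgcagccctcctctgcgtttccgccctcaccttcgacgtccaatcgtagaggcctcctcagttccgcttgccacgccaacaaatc
Stat2 held an ISRE core that began 207 bases before the start and a GAS with spacer 4 that began 195 bases before it. Jak2 held a GAS with spacer 3 that began 138 bases before the start, and Tyk2 held one that began 294 bases before it. The Stat3 window held none of the 3. Of 21769 windows of the same length before protein-coding genes, 4.07% held the ISRE core, 9.2% the GAS with spacer 3 and 7.4% the GAS with spacer 4. Among the other STAT and JAK genes, Stat4 and Jak1 also held an ISRE core and Stat5a held a GAS with spacer 4. A match describes letters and says nothing of binding.

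The genes differed widely in level. Stat6, Jak1 and Stat3 were the abundant members, with means over 24 libraries of 117, 108 and 107 TPM. Stat2, Tyk2 and Jak2 followed at 59.6, 39.1 and 36.1 TPM, then Stat5b at 27.3 and Stat5a at 18.1 TPM. Stat4 was close to the filter at 1.39 TPM. The ratio of the highest to the lowest group mean was 5.72 for Stat2, 2.64 for Stat3, 2.63 for Jak2 and 2.11 for Tyk2, against 1.22 for Stat5a, 1.27 for Stat6 and 1.31 for Jak1.

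**Figure D1:**
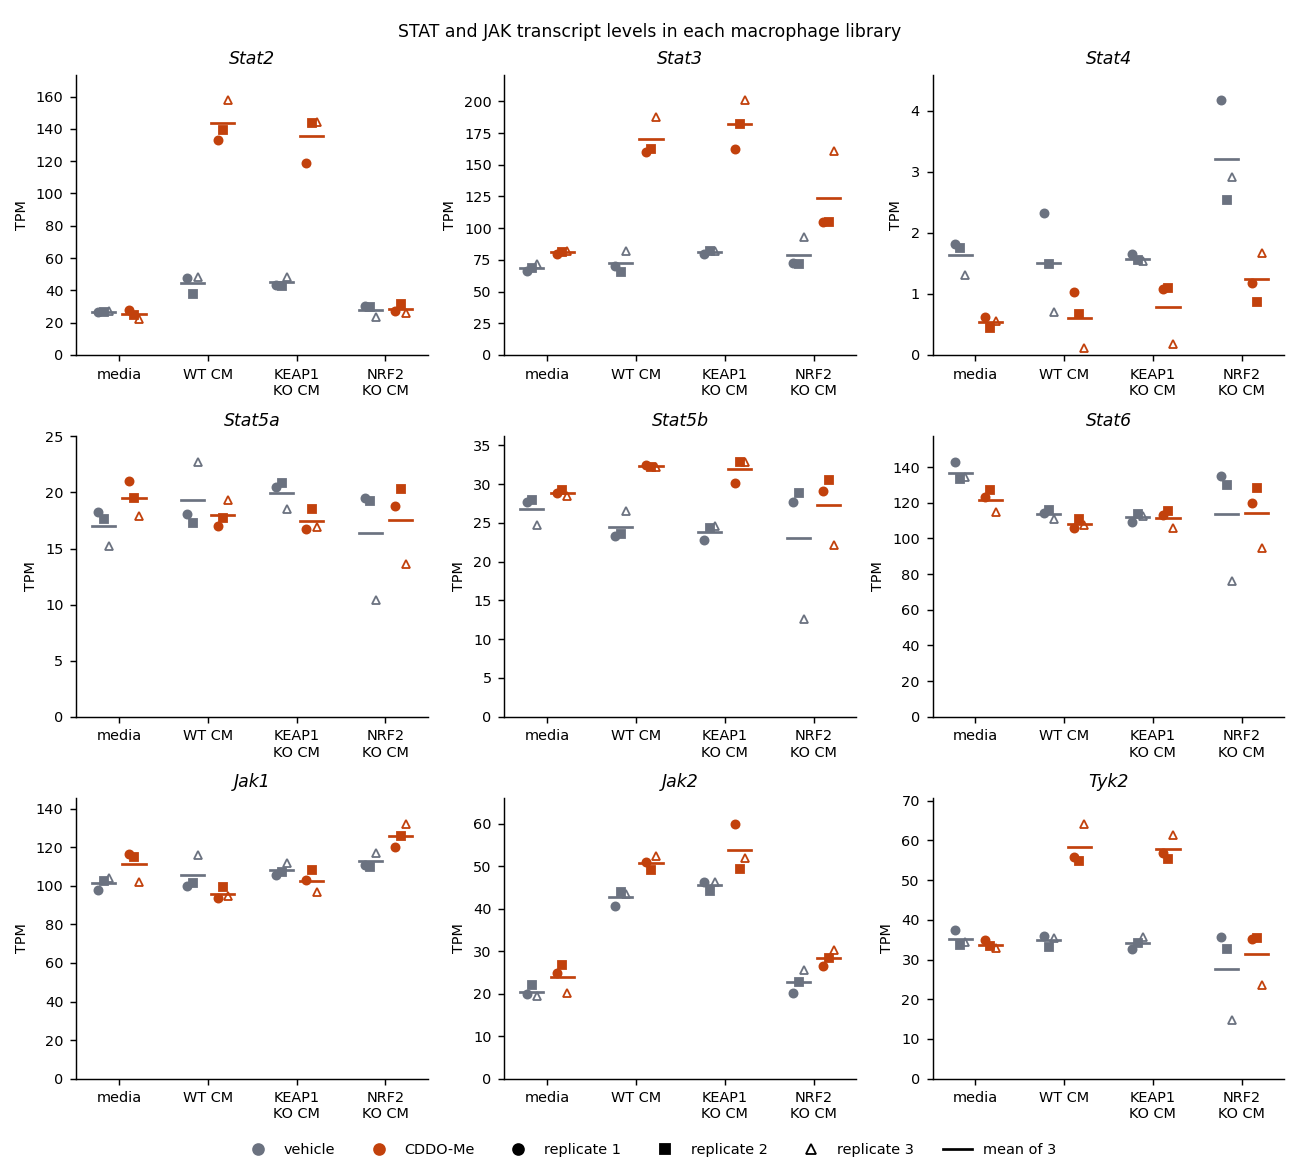
TPM of each STAT and JAK gene (vertical axis, from 0, a scale of its own for each gene) in every library, by medium and treatment; marker shapes give the replicate and short lines the mean of 3 libraries. Stat2 reached 119 to 158 TPM in WT CM and KEAP1 KO CM with CDDO-Me and was at most 48.5 TPM in the other groups, and the replicate 3 libraries of NRF2 KO CM lie low for Stat5a, Stat5b, Stat6 and Tyk2.

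To ask what cancer CM did to the STAT and JAK genes, WT/vehicle BMDMs were compared with media/vehicle BMDMs. Jak2 and Stat2 were the members that rose, beside 7.34% of all genes tested that were called in this comparison (4.33% higher and 3.02% lower; 1003 genes, or 1734 with the replicate number as a block). Jak2 encodes the kinase of the GM-CSF, IL-3 and interferon gamma receptors. It was at 20.0, 21.9 and 19.4 TPM in media/vehicle and 40.7, 43.9 and 43.6 TPM in WT/vehicle BMDMs. The groups did not overlap, and the difference on the log2(scaled TPM + 1) scale was 1.09 ± 0.13 (SE), or 2.13-fold (limma adjusted p = 9.89e-06). Stat2, the partner of IRF9 in ISGF3, was at 26.6, 26.7 and 27.0 TPM in media/vehicle and 47.6, 37.7 and 48.5 TPM in WT/vehicle BMDMs. It rose by 0.77 ± 0.11 on the log2 scale, or 1.71-fold (limma adjusted p = 0.000153). For 35.0% of all genes tested these groups did not overlap, and 3 of the 9 members were among them.

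KEAP1 KO CM raised Jak2 and Stat2 as well against media/vehicle. Jak2 was at 46.3, 44.1 and 46.2 TPM and rose by 1.11 ± 0.13 on the log2 scale (limma adjusted p = 7.28e-06). Stat2 was at 43.6, 42.7 and 48.3 TPM and rose by 0.71 ± 0.11 (limma adjusted p = 0.000307). The background was 7.96% of genes called (4.65% higher and 3.31% lower), and the groups did not overlap for 7 of the 9 members against 35.8% of all genes. In both CM comparisons the values for the other 7 members did not pass the test, with Stat3 at 0.13 ± 0.19 in WT CM and 0.23 ± 0.19 in KEAP1 KO CM, and Stat5a at 0.23 ± 0.15 and 0.21 ± 0.15.

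Stat6 was not among the members that rose. This gene encodes the IL-4 and IL-13 factor and was at 143, 133 and 135 TPM in media/vehicle, 115, 116 and 111 TPM in WT/vehicle and 109, 114 and 112 TPM in KEAP1 KO/vehicle BMDMs. Every CM library of both groups lay below every media/vehicle library. The log2 differences of -0.20 ± 0.11 and -0.30 ± 0.11 did not pass the test (limma adjusted p = 0.4 and 0.12). With both replicate 3 libraries of NRF2 KO CM left out of the fit, they were -0.21 ± 0.044 and -0.30 ± 0.044 and did pass (limma adjusted p = 0.00269 and 0.000103).

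NRF2 KO CM gave another picture. None of the 9 members passed the test against media/vehicle, in a comparison where 1 gene of 13661 was called (0.00732%) and 1659 had an unadjusted p under 0.05. For 2 of the 9 members all libraries of one group lay beyond those of the other, beside 12.6% of all genes. Jak2 was at 20.2, 22.7 and 25.6 TPM and differed by 0.18 ± 0.13 on the log2 scale, and Stat2 was at 30.1, 29.8 and 23.7 TPM and differed by 0.076 ± 0.11. Without the replicate 3 libraries these were 0.025 ± 0.10 and 0.12 ± 0.12. For Tyk2 and Stat6 the low library carried most of the difference. Tyk2 was at 35.8, 32.5 and 14.7 TPM and Stat6 at 135, 130.2 and 76.0 TPM in NRF2 KO/vehicle BMDMs. Their differences of -0.40 ± 0.18 and -0.28 ± 0.11 became -0.081 ± 0.091 and -0.086 ± 0.049 without the replicate 3 libraries.

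WT/vehicle was next set against NRF2 KO/vehicle, where 10.7% of genes were called (6.56% higher and 4.11% lower). Jak2 was higher in WT CM by 0.92 ± 0.13 (limma adjusted p = 9.25e-05) and Stat2 by 0.70 ± 0.11 (limma adjusted p = 0.000438). In both cases the 3 libraries of WT CM lay above the 3 of NRF2 KO CM, as groups did not overlap for 3 of the 9 members and 26.4% of all genes. Without the replicate 3 libraries the differences were 1.06 ± 0.10 and 0.65 ± 0.12 (limma adjusted p = 7.31e-07 and 0.00117). In a fit of these 6 libraries alone neither passed (limma adjusted p = 0.0801 for Jak2 and 0.136 for Stat2).

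KEAP1 KO CM was set against WT CM, both with vehicle, to see whether the KEAP1 status of the cancer cells mattered. None of the 9 members passed the test, and none of all genes tested did (0% called, with 341 at an unadjusted p under 0.05). For 1 member the libraries of the 2 groups were fully apart, beside 13.6% of all genes. The 9 log2 differences lay between -0.10 and 0.094. Leaving out Stat4, the 95% intervals lay within -0.48 to 0.49, so differences up to that size are within the error of these samples.

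**Figure D2:**
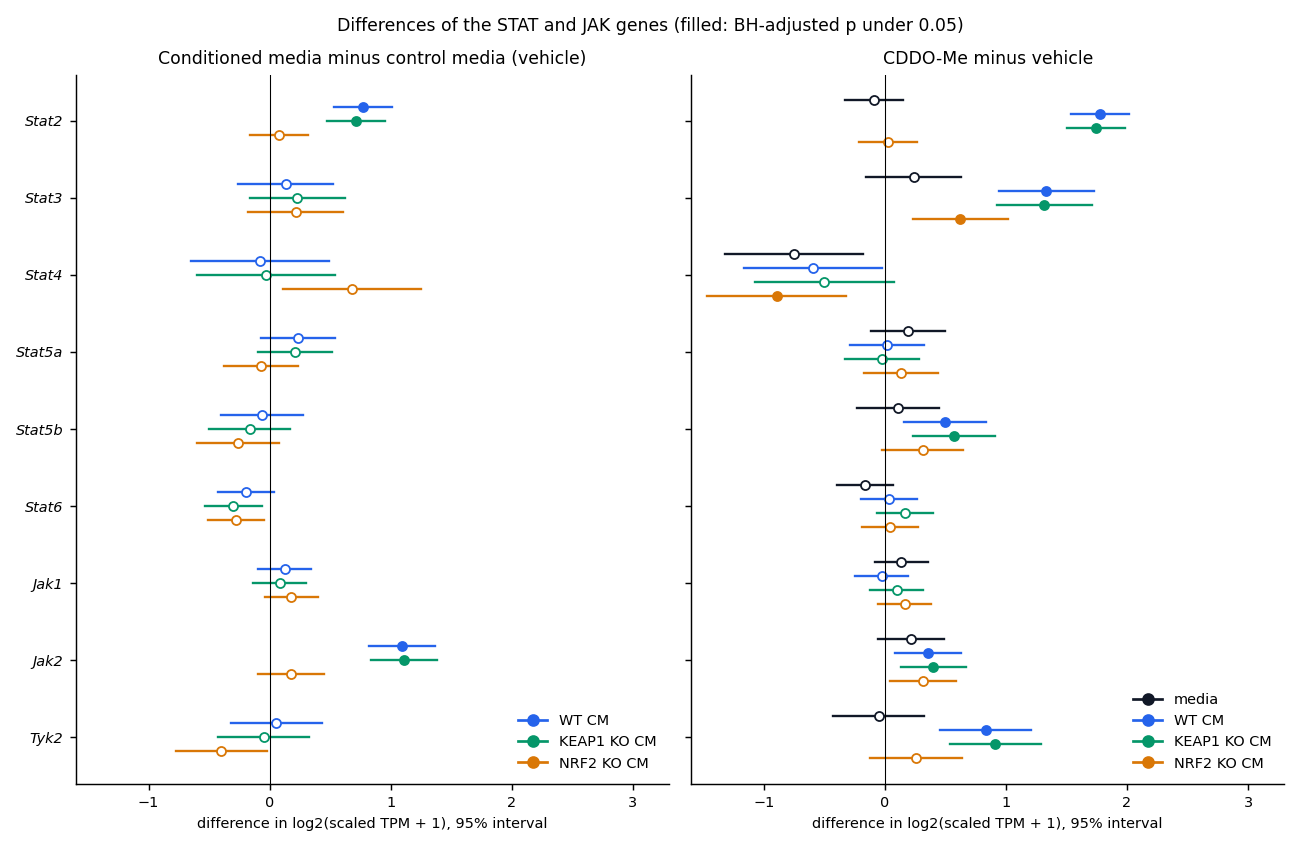
Differences in log2(scaled TPM + 1) with 95% intervals (horizontal axis) for the STAT and JAK genes (vertical axis), CM minus control media with vehicle on the left and CDDO-Me minus vehicle in each medium on the right; filled points passed the adjusted p of 0.05. On the left the filled points are Jak2 and Stat2 in WT CM and KEAP1 KO CM, and on the right Stat2, Stat3 and Tyk2 lie furthest from 0 in these 2 media.

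CDDO-Me was then compared with vehicle in each medium. In control media none of the 9 members passed the test, while 6.01% of genes were called (3.07% higher and 2.94% lower; 821 genes, or 1466 with the replicate block). The groups did not overlap for 4 of the 9 members, beside 31.5% of all genes. Stat2 was at 28.0, 24.9 and 22.4 TPM with CDDO-Me and differed by -0.088 ± 0.11 from media/vehicle. The differences were 0.24 ± 0.19 for Stat3, -0.051 ± 0.18 for Tyk2, 0.22 ± 0.13 for Jak2, 0.11 ± 0.16 for Stat5b, 0.19 ± 0.15 for Stat5a and -0.16 ± 0.11 for Stat6. Stat6 passed without the replicate 3 libraries of NRF2 KO CM, at -0.15 ± 0.044 (limma adjusted p = 0.0285).

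In WT CM, CDDO-Me raised 5 of the 9 members and lowered none, beside 27.8% of genes tested that were called (13.9% higher and 13.9% lower). Stat2 was at 133, 139 and 158 TPM, above every vehicle library of any medium. The rise over WT/vehicle was 1.78 ± 0.11 on the log2 scale, or 3.43-fold (limma adjusted p = 2.84e-10). Stat3, the IL-6 and IL-10 factor, was at 69.8, 65.8 and 82.2 TPM with vehicle and 160.0, 163 and 188 TPM with CDDO-Me. It rose by 1.33 ± 0.19, or 2.52-fold (limma adjusted p = 1.33e-05). Tyk2, a kinase of the type I interferon, IL-10 and IL-12 receptors, was at 36.0, 33.1 and 35.5 TPM with vehicle and 55.9, 54.7 and 64.2 TPM with CDDO-Me. It rose by 0.83 ± 0.18, or 1.78-fold (limma adjusted p = 0.00128).

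The other 2 rises in WT CM were smaller. Stat5b was at 23.2, 23.6 and 26.5 TPM with vehicle and 32.4, 32.2 and 32.2 TPM with CDDO-Me, a rise of 0.50 ± 0.16 (limma adjusted p = 0.0251). Jak2, already higher in WT CM, was at 51.1, 49.1 and 52.5 TPM with CDDO-Me, a rise of 0.36 ± 0.13 (limma adjusted p = 0.0453). Both fell short of the threshold on unscaled TPM, at 0.39 ± 0.20 for Stat5b and 0.25 ± 0.11 for Jak2 (limma adjusted p = 0.156 and 0.0885). The Stat5b call was also lost on leaving out 5 of the 6 WT CM libraries in turn, all but WT/vehicle replicate 3, and the Jak2 call was lost in 16 of 35 alternative settings.

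KEAP1 KO CM gave the same 5 rises, beside 28.8% of genes called (14.5% higher and 14.2% lower). Stat2 was at 119, 144 and 144 TPM and rose by 1.74 ± 0.11 (limma adjusted p = 3.99e-10). Stat3 was at 79.8, 82.3 and 82.1 TPM with vehicle and 162, 182 and 201 TPM with CDDO-Me, a rise of 1.32 ± 0.19 (limma adjusted p = 1.47e-05). Tyk2 was at 32.7, 34.2 and 35.6 TPM with vehicle and 56.9, 55.2 and 61.5 TPM with CDDO-Me, a rise of 0.91 ± 0.18 (limma adjusted p = 0.000514). Stat5b rose by 0.57 ± 0.16 and Jak2 by 0.40 ± 0.13 (limma adjusted p = 0.01 and 0.0238). Neither passed on unscaled TPM, at 0.41 ± 0.20 and 0.23 ± 0.11. The Jak2 call was also lost without KEAP1 KO/vehicle replicate 2, or replicate 1 or 3 of KEAP1 KO CM with CDDO-Me. Stat6 differed by 0.17 ± 0.11, a value that was -0.0060 on unscaled TPM and 0.19 ± 0.044 without the replicate 3 libraries of NRF2 KO CM (limma adjusted p = 0.00167). The vehicle and CDDO-Me libraries did not overlap for 7 of the 9 members in either medium, against 53.5% of all genes tested in WT CM and 54.1% in KEAP1 KO CM.

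In NRF2 KO CM, where 9.77% of genes were called (4.49% higher and 5.28% lower), the groups did not overlap for 4 of the 9 members, beside 17.6% of all genes. Stat2 did not pass. It was at 27.4, 31.4 and 25.8 TPM with CDDO-Me and differed from NRF2 KO/vehicle by 0.025 ± 0.11, or 0.0022 ± 0.13 without the replicate 3 libraries. Stat3 was at 72.7, 71.5 and 93.2 TPM with vehicle and 105, 105 and 161 TPM with CDDO-Me. Its rise of 0.62 ± 0.19 passed the test (limma adjusted p = 0.0403), and was 0.57 ± 0.11 without both replicate 3 libraries (limma adjusted p = 0.00279). Leaving out the CDDO-Me replicate 3 library alone gave 0.34 ± 0.16 (limma adjusted p = 0.18), and a fit of these 6 libraries gave 0.64 ± 0.30 (limma adjusted p = 0.586). The Stat3 call was lost in 10 of 35 alternative settings. Tyk2 differed by 0.26 ± 0.18, Stat5b by 0.31 ± 0.16, Jak2 by 0.31 ± 0.13 and Jak1 by 0.17 ± 0.10, none of which passed. Without the replicate 3 libraries Tyk2 was at 0.083 ± 0.10, Stat5b at 0.10 ± 0.079 and Jak1 at 0.18 ± 0.074. Jak2 passed without the replicate 3 libraries, at 0.38 ± 0.11 (limma adjusted p = 0.0295).

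Whether the response to CDDO-Me differed between media was tested by an interaction term. These contrasts share the media/vehicle and media/CDDO-Me libraries. The Stat2 response was larger in WT CM than in control media by 1.87 ± 0.16 and in KEAP1 KO CM by 1.83 ± 0.16 (limma adjusted p = 5.49e-08 and 7.62e-08). For Stat3 the differences were 1.09 ± 0.27 and 1.08 ± 0.27 (limma adjusted p = 0.00674 and 0.0073). For Tyk2 they were 0.88 ± 0.25 and 0.96 ± 0.25 (limma adjusted p = 0.0217 and 0.0124). The Tyk2 differences did not pass on unscaled TPM, at 0.78 ± 0.30 and 0.80 ± 0.30, and the WT CM call was lost in 5 of 35 alternative settings, among them leaving out media/vehicle replicate 1, WT/vehicle replicate 2, media/CDDO-Me replicate 2 or WT/CDDO-Me replicate 3. Of all genes tested, 15.0% were called for WT CM (8.30% higher and 6.74% lower) and 14.7% for KEAP1 KO CM (8.38% higher and 6.36% lower).

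The interaction did not pass for the other 6 members. The Jak2 response to CDDO-Me was not shown to differ between CM and media, at 0.14 ± 0.18 with WT CM and 0.19 ± 0.18 when KEAP1 KO CM was used. For Stat5b the values were 0.39 ± 0.23 and 0.46 ± 0.23, and for Stat6 0.20 ± 0.16 and 0.33 ± 0.16. These 4 values passed once the replicate 3 libraries of NRF2 KO CM were left out, at 0.42 ± 0.092 and 0.47 ± 0.092 for Stat5b (limma adjusted p = 0.00204 and 0.000711) and 0.23 ± 0.062 and 0.34 ± 0.062 for Stat6 (limma adjusted p = 0.0099 and 0.00044). In NRF2 KO CM against media no member and no gene passed (0% called, 374 at an unadjusted p under 0.05), with 0.11 ± 0.16 for Stat2, 0.39 ± 0.27 for Stat3 and 0.31 ± 0.25 for Tyk2. Without both replicate 3 libraries these were 0.077 ± 0.17, 0.32 ± 0.15 and 0.12 ± 0.13, and without that of NRF2 KO/vehicle alone the Tyk2 value was -0.0051. Between KEAP1 KO CM and WT CM the 9 differences in response lay between -0.038 and 0.13, and none passed (0% of genes called, 225 at an unadjusted p under 0.05).

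**Figure D3:**
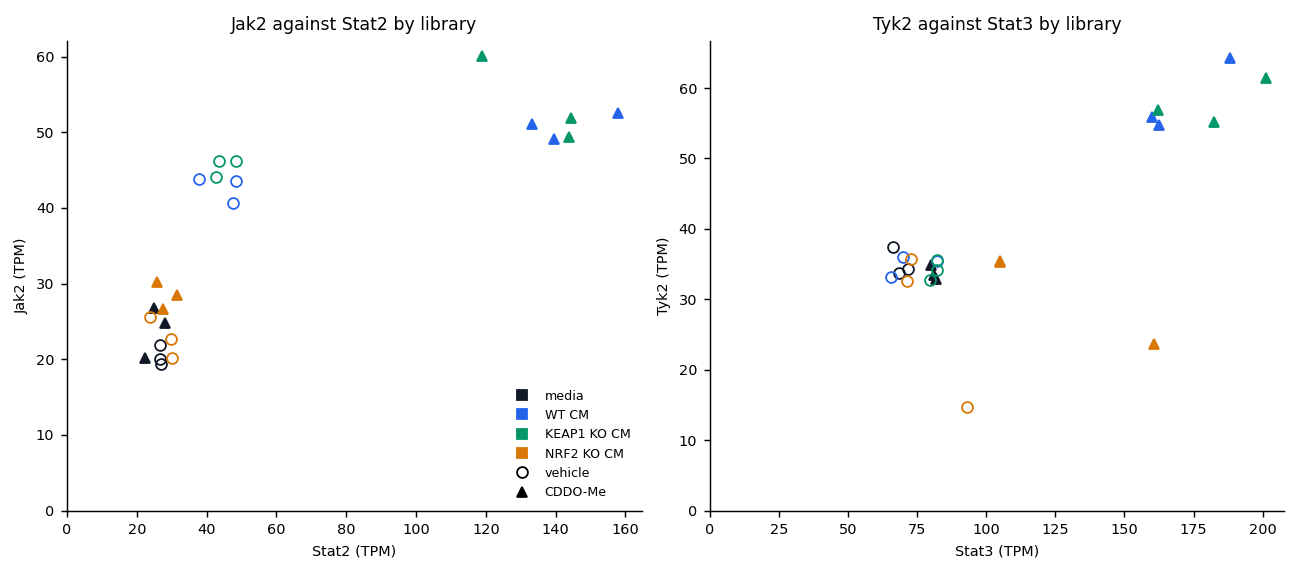
Levels by library in TPM (both axes from 0), Jak2 against Stat2 on the left and Tyk2 against Stat3 on the right; colours give the medium, open circles vehicle and triangles CDDO-Me. WT CM and KEAP1 KO CM with vehicle form a middle group on the left, high in Jak2 at 40.7 to 46.3 TPM with Stat2 at most 48.5 TPM, and the 2 NRF2 KO CM replicate 3 libraries lie low in Tyk2 at 14.7 and 23.7 TPM.

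The order of group means showed the same grouping. For Stat2, WT CM and KEAP1 KO CM with CDDO-Me came first at 144 ± 12.8 and 136 ± 14.6 TPM (mean ± SD, n = 3) and overlapped. They were clear of KEAP1 KO/vehicle and WT/vehicle at 44.9 ± 2.99 and 44.6 ± 6.02 TPM, which overlapped each other and were clear of the remaining 4 groups. Jak2 ran from 53.8 ± 5.57 TPM in KEAP1 KO CM with CDDO-Me to 20.4 ± 1.34 TPM in media/vehicle, and the lowest 4 groups overlapped their neighbours. For Stat3 the first 3 groups stood at 182 ± 19.4, 170.2 ± 15.5 and 124 ± 32.1 TPM. The first of them overlapped the second, the second overlapped the third through the replicate 3 library of NRF2 KO CM with CDDO-Me, and all 3 were clear of the other 5 groups, which ran from 81.4 ± 1.37 down to 68.9 ± 2.81 TPM with each overlapping the next. In the order for Tyk2, WT CM and KEAP1 KO CM with CDDO-Me stood first at 58.3 ± 5.19 and 57.9 ± 3.22 TPM, and the other 6 groups overlapped their neighbours.

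Jak1, the kinase shared by the gp130, interferon and common gamma chain receptors, passed the test in none of the 13 comparisons. As deposited, it was highest in NRF2 KO CM with CDDO-Me at 120.3, 126 and 132 TPM and lowest in WT CM with CDDO-Me at 93.8, 99.4 and 94.9 TPM. After scaling the lowest mean was 97.4 TPM in media/vehicle, and WT CM with CDDO-Me stood at 104.3 TPM. Stat5a passed in none either, and its group means ran from 16.4 ± 5.14 to 20.0 ± 1.23 TPM with all neighbours overlapping. The ratio of Stat5b to Stat5a was 1.52, 1.58 and 1.62 in media/vehicle, 1.28, 1.37 and 1.17 in WT/vehicle and 1.90, 1.82 and 1.67 in WT CM with CDDO-Me. The ratio of Jak2 to Jak1 (mean ± SD, n = 3) was 0.202 ± 0.0141, 0.405 ± 0.0284 and 0.531 ± 0.0323 in the same groups. Stat2 was 0.196 ± 0.00846 times the level of Stat6 in media/vehicle and 1.33 ± 0.121 times in WT CM with CDDO-Me.

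Stat4, the IL-12 factor of T and NK cells, was scarce throughout. It was at 4.18, 2.55 and 2.91 TPM in NRF2 KO/vehicle and 1.18, 0.870 and 1.67 TPM in NRF2 KO CM with CDDO-Me, a log2 difference of -0.89 ± 0.27 (limma adjusted p = 0.0432). The call was lost in 19 of 34 alternative settings, and without the replicate 3 libraries the value was -1.05 ± 0.33 (limma adjusted p = 0.0576). In media it was at 1.83, 1.76 and 1.31 TPM with vehicle and 0.622, 0.438 and 0.559 TPM with CDDO-Me, a difference of -0.75 ± 0.27 that did not pass. In WT CM and KEAP1 KO CM the differences were -0.59 ± 0.27 and -0.50 ± 0.27. NRF2 KO/vehicle differed from media/vehicle by 0.68 ± 0.27, and WT/vehicle from NRF2 KO/vehicle by -0.76 ± 0.27, neither of which passed. Without the replicate 3 libraries these were 0.67 ± 0.30 and -0.75 ± 0.30. The 14 markers of T and NK cells summed to 191 to 219 TPM in media/vehicle and 100.2 to 177 TPM in media with CDDO-Me. The sum was 139.5 to 267 TPM in NRF2 KO/vehicle, 73.8 to 161 TPM with CDDO-Me, and 34.7 to 43.9 TPM in WT CM with CDDO-Me. Il7r held most of this sum, Cd3e stayed at or under 0.190 TPM and Prf1 at or under 0.0368 TPM. The 6 mast cell and basophil markers summed to means of 15.3 TPM in NRF2 KO/vehicle and 8.62 TPM in media/vehicle. Their means were 5.11 TPM in KEAP1 KO/vehicle and 3.08 TPM in WT/vehicle. With CDDO-Me they were 4.65 TPM in NRF2 KO CM, 3.36 TPM in media, 3.02 TPM in KEAP1 KO CM and 0.736 TPM in WT CM. The part of any of these cells in the Stat4 values was not tested.

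The sums of other marker lists were compared in the groups in which Stat2, Stat3 and Tyk2 rose. The 8 dendritic cell markers summed to 10.8 to 11.3 TPM in media/vehicle, 54.3 to 66.7 TPM in WT/vehicle and 124 to 157 TPM in WT CM with CDDO-Me. Batf3 at a mean of 53.4 TPM held most of the sum in WT/vehicle and Clec9a at 104.7 TPM in WT CM with CDDO-Me. Xcr1 moved with Clec9a, from a mean of 0.0319 TPM in WT/vehicle to 3.86 TPM with CDDO-Me. In KEAP1 KO CM the Xcr1 means were 0.0713 and 2.07 TPM. Batf3 and Cd209a went the other way in WT CM, to means of 26.5 and 0.00878 TPM with CDDO-Me. Flt3 stayed at or under 0.239 TPM and Siglech at or under 0.513 TPM. The 13 fibroblast markers summed to 1069 to 2082 TPM in WT/vehicle and 455 to 1137 TPM with CDDO-Me. The 9 neutrophil markers summed to 11.3 to 36.3 and 33.6 to 59.6 TPM in these groups, with S100a8 at a mean of 8.72 and 33.5 TPM. The 6 mast cell and basophil markers summed to 2.11 to 3.92 and 0.723 to 0.754 TPM, the 5 B cell markers to 1.75 to 2.18 and 1.18 to 2.49 TPM, and the 5 epithelial markers to 4.98 to 6.01 and 0.277 to 0.850 TPM. In KEAP1 KO CM the neutrophil markers summed to at most 24.8 TPM with vehicle and 65.8 to 74.5 TPM with CDDO-Me. The sums in the same 2 groups were 40.1 to 55.1 and 62.1 to 107 TPM for the dendritic cell markers, and 1533 to 2812 and 417 to 1516 TPM for the fibroblast markers. The neutrophil sum was also higher with CDDO-Me where Stat2 and Tyk2 did not pass, at 14.9 to 27.3 and 32.1 to 50.0 TPM in control media and 14.1 to 31.5 and 34.3 to 65.5 TPM in NRF2 KO CM. Fewer cells of a type and less RNA per cell cannot be told apart in bulk samples, and the part of these cells in the STAT and JAK values was not tested.

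The targets of the STATs were described by lists of known target genes. These lists, and those of receptors and inhibitors below, were chosen with earlier results of these data known. Their counts are therefore descriptions and not tests of the STATs. Of 24 ISGF3 targets tested, 23 were called higher and 0 lower with CDDO-Me in WT CM, beside 27.8% of all genes called. Their median log2 difference was 2.40, against -0.028 over all genes. In KEAP1 KO CM all 24 were called higher (median 2.46), beside 28.8% of all genes called. Isg15, a ubiquitin-like protein, was at 11.5, 8.92 and 9.88 TPM in WT/vehicle and 110.3, 117 and 117 TPM with CDDO-Me, a rise of 3.50 ± 0.19 (limma adjusted p = 2.89e-11). Parp14 rose by 2.32 ± 0.13 and Ifi44 by 3.88 ± 0.22 (limma adjusted p = 2.48e-11 and 4.87e-11). In control media 1 was called higher (Oas3, by 1.13 ± 0.33) and 1 lower (Rtp4, at -1.18 ± 0.28), beside 6.01% of all genes (821 genes). Without the replicate 3 libraries of NRF2 KO CM 1 was called higher and 6 lower, in a fit that called 2118 genes. In NRF2 KO CM none was called higher and 4 were called lower, Rtp4 among them at -1.94 ± 0.28, beside 9.77% of all genes called. Without the replicate 3 libraries 3 were called lower there (Isg15, Oas1a and Rtp4), with Rtp4 at -1.76 ± 0.28.

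With cancer CM and vehicle, few ISGF3 targets were called. In WT/vehicle against media/vehicle 2 of 24 were called higher and 1 lower (median -0.058, all genes 0.0079), beside 7.34% of all genes tested (1003 genes). Without the replicate 3 libraries of NRF2 KO CM the counts were 4 and 2, in a fit that called 2595 genes. Zbp1, a nucleic acid sensor, rose by 1.62 ± 0.27 and Irf7, the interferon regulatory factor, by 1.14 ± 0.19 (limma adjusted p = 0.000541 and 0.000618), and Ifit3 was lower, at -1.25 ± 0.31 (limma adjusted p = 0.0162).

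STAT6 targets moved while Stat6 itself did not pass, a result that depended on the fit. Without the replicate 3 libraries of NRF2 KO CM, Stat6 passed as lower in WT/vehicle and KEAP1 KO/vehicle against media/vehicle, at -0.21 ± 0.044 and -0.30 ± 0.044. It then passed as higher with CDDO-Me in KEAP1 KO CM, at 0.19 ± 0.044, but not in WT CM, at 0.079 ± 0.044. Of 21 STAT6 targets tested, 17 were called higher in WT CM and 18 in KEAP1 KO CM against media/vehicle, and none lower (medians 2.67 and 2.39). The share of all genes called was 7.34% and 7.96% in these comparisons. Arg1, the arginase of alternative activation, was at 0.0884, 0.301 and 0.128 TPM in media/vehicle and 681, 765 and 544 TPM in WT/vehicle BMDMs. Retnla was listed at 0 in every library outside WT/vehicle, at 1990.0, 1753 and 3262 TPM, and KEAP1 KO/vehicle, at 1504, 1389.8 and 1883 TPM. With CDDO-Me, 15 targets were called lower in WT CM and 16 in KEAP1 KO CM (medians -1.78 and -1.66), beside 27.8% and 28.8% of all genes called. Arg1 was then at 0.239, 0.0823 and 0.0554 TPM in WT CM. The 2 that rose in both were Socs1, an inhibitor, and Il4ra, the IL-4 receptor chain. None of the 21 was called in NRF2 KO/vehicle against media/vehicle, with or without the replicate 3 library. With it, 0.00732% of all genes were called there.

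STAT3 and STAT5 targets were called less uniformly. The lists share genes, so their counts are not independent. Ccl17 and Ccl22 are in both the STAT5 and STAT6 lists, and Pim1 and Bcl2l1 in both the STAT3 and STAT5 lists. Il4ra is in the STAT3, STAT6 and receptor lists. Socs1 is in the STAT6 and inhibitor lists, and Usp18 in the ISGF3 and inhibitor lists. Of 20 STAT3 targets, 7 were called higher and 2 lower with CDDO-Me in WT CM, and 10 and 2 in KEAP1 KO CM. The share of all genes called was 27.8% and 28.8% in these media. Saa3, an acute phase protein, rose by 5.42 ± 0.68 in WT CM, and Myc was lower there, at -1.63 ± 0.18 (limma adjusted p = 3.54e-06 and 5.37e-07). In NRF2 KO CM 4 were called higher and 1 lower, beside 9.77% of all genes called, with Saa3 at 3.50 ± 0.68 and Nfil3 at 1.00 ± 0.20. Without the replicate 3 libraries 5 were called higher and 1 lower there, with Saa3 at 3.07 ± 0.71 and Nfil3 at 0.69 ± 0.14. Of 14 STAT5 targets, 5 were called higher and 1 lower in WT/vehicle against media/vehicle, while with CDDO-Me in WT CM 2 were higher and 5 lower, or 4 and 5 without the replicate 3 libraries of NRF2 KO CM. With all libraries kept, the share of all genes called was 7.34% in the first of these comparisons and 27.8% in the second (3798 genes). Without the replicate 3 libraries 5926 genes were called in the second, and Ccl17 and Ccl22 were among the 5 STAT5 targets called lower. Cish, a STAT5 target that inhibits STAT5, was at 0.774, 0.536 and 0.520 TPM in media/vehicle, 19.2, 22.3 and 31.7 TPM in WT/vehicle and 1.21, 0.992 and 1.62 TPM in WT CM with CDDO-Me.

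**Figure D4:**
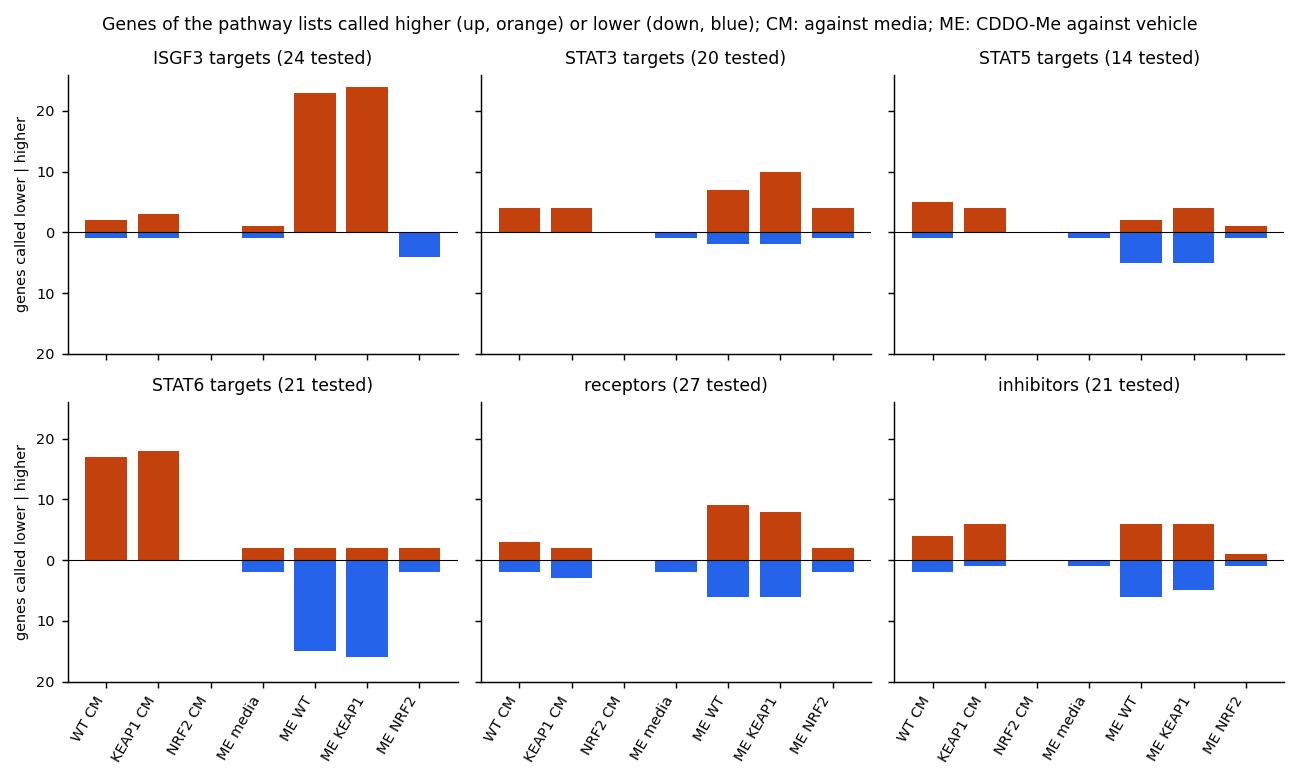
Number of genes of 6 pathway lists called higher (upward bars) or lower (downward bars) at an adjusted p under 0.05 in each of 7 comparisons along the horizontal axis, with the number tested in each title. ISGF3 targets were called higher with CDDO-Me in WT CM (23 of 24) and KEAP1 KO CM (24 of 24). STAT6 targets were called higher with these CM (17 and 18 of 21) and lower with CDDO-Me (15 and 16 of 21). The shares of all genes called were 7.34% and 7.96% with these CM and 27.8% and 28.8% with CDDO-Me.

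Receptors that use these kinases moved in both directions. Of 27 tested, 3 were called higher and 2 lower in WT/vehicle against media/vehicle, beside 7.34% of all genes (1003 genes). Without the replicate 3 libraries of NRF2 KO CM the counts were 6 and 2, in a fit that called 2595 genes. Il6st, the gp130 chain, rose by 1.37 ± 0.11 and Il4ra by 1.05 ± 0.13 (limma adjusted p = 9.06e-08 and 2.05e-05), while Il13ra1 was lower, at -0.81 ± 0.19 (limma adjusted p = 0.011). CDDO-Me in WT CM gave 9 higher and 6 lower, beside 27.8% of all genes (3798 genes). Without these libraries it gave 11 and 8, in a fit that called 5926 genes. Il4ra rose further, from 140.3, 127 and 95.3 to 349, 340.0 and 259 TPM, and Il10ra and Il15ra rose by 2.05 ± 0.14 and 2.49 ± 0.17. Il6st fell by 1.35 on the log2 scale and Il10rb by 1.23.

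Inhibitors of the pathway were mixed as well. Of 21 tested, 4 were called higher and 2 lower with WT CM, and 6 and 6 with CDDO-Me in WT CM. The counts were 7 and 3, then 8 and 6, without the replicate 3 libraries of NRF2 KO CM. With these libraries kept, 7.34% and 27.8% of all genes were called (1003 and 3798 genes). Without them 2595 and 5926 genes were called. Socs1, which blocks JAK activity, was at 1.20, 0.978 and 0.652 TPM in media/vehicle, 22.3, 23.1 and 25.8 TPM in WT/vehicle and 111, 111 and 125 TPM in WT CM with CDDO-Me. The phosphatase gene Ptpn6 was lower in WT CM, at -0.58 ± 0.14, and rose with CDDO-Me by 1.97 ± 0.14 (limma adjusted p = 0.0142 and 1.25e-09). Usp18, an inhibitor of the type I interferon receptor, rose by 2.49 ± 0.21, and the ubiquitin ligase gene Cblb fell by 2.42 on the log2 scale with CDDO-Me in WT CM.

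The 3 genes most like each member were taken by Pearson's r of log2 levels over the 24 libraries, among genes with a mean of at least 5 TPM. The libraries share their group structure, so these values are descriptions. They were Dnase1l3, Zbp1 and Irf7 for Stat2 (r = 0.991, 0.991 and 0.990), and Mapk9, Adora3 and Ifi209 for Stat3 (r = 0.972, 0.971 and 0.970). For Tyk2 they were Ppp6r1, Lipe and Ppt2 (r = 0.985, 0.985 and 0.983), for Stat5b Trpv2, Mvp and Tpgs1 (r = 0.981, 0.968 and 0.961), and for Jak2 Glrx, Scimp and Ocstamp (r = 0.956, 0.949 and 0.947). Lower values were found for Stat6 (Ssh3, Ppp1r16a and Xab2, r = 0.915, 0.911 and 0.911), Jak1 (Zrsr2-ps1, Resf1 and Cdc40, r = 0.893, 0.874 and 0.867), Stat5a (Afg3l1, Srsf9 and Thoc6, r = 0.871, 0.851 and 0.850) and Stat4 (Pilrb2, Samsn1 and Mt1, r = 0.856, 0.843 and 0.823). Among the members themselves, Tyk2 and Stat5b had r = 0.901, Tyk2 and Stat2 0.885, and Jak2 and Stat2 0.868 over these libraries.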

How the data were processed

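RNA from 24 libraries of BMDMs was measured, and groups and replicate numbers were taken from the sample labels. Per the study's methods, the authors quantified poly-A libraries with kallisto on GRCm39 cDNA, and the deposited values are length-scaled TPM for 35770 gene symbols. The name of that tool and build stand in the submitters' processing notes too. One further line without a symbol (0.0199% to 0.0635% of TPM) was left out. TPM hold no read numbers, so depth is unknown and no count test was run.

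TPM were divided by trimmed mean of M values factors (unweighted, trims of 30% and 5%; 0.910 to 1.11), and log2(scaled TPM + 1) was fitted with limma 3.58.1 in R 4.3.3, with a trend, for all 8 groups at once (16 residual degrees of freedom). Genes above 1 TPM in at least 3 libraries were tested, two-sided, with Benjamini-Hochberg adjustment over 13661 genes and a threshold of 0.05, applied to unrounded p-values. This scale understates changes of low genes. The procedure was tested on simulated data. Intervals are 95% intervals of the moderated statistic.

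Replicate numbers are shared between groups, and the correlation of same-numbered deviations was 0.0221 to 0.717 over 84 pairs. Its mean was 0.256, against -0.121 for deviations with different numbers. Every pair passed 0.1 in WT/vehicle and in CDDO-Me in media against media/vehicle, and there a replicate block raised the genes called from 1003 to 1734 and from 821 to 1466. It passed too in KEAP1 KO/vehicle against WT/vehicle (0 genes with and without the block) and in CDDO-Me in NRF2 KO CM (1335 and 1988).

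Members and lists were chosen with earlier results of these data known. All 9 members are named, with up to 3 called genes per list, direction and comparison, of which a part is printed. Coordinates, windows and 31-base stretches came from GENCODE vM39.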

Additional observations from a re-analysis of the deposited data

Results flagged for a closer look

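The response to CDDO-Me differed between media for 3 genes, by an interaction term in limma. The difference between WT CM and control media was 1.87 on the log2 scale for Stat2 (95% interval 1.53 to 2.21), 1.09 for Stat3 (0.54 to 1.65) and 0.88 for Tyk2 (0.35 to 1.41). Between KEAP1 KO CM and control media it was 1.83 for Stat2 (1.49 to 2.17), 1.08 for Stat3 (0.53 to 1.63) and 0.96 for Tyk2 (0.43 to 1.49). Both sets of differences share the control media libraries.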

How the results depend on the processing

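Of 24 calls on the STAT and JAK genes, 14 kept their call and direction under all 35 alternatives, 10 were lost under at least 1 and 0 were reversed. Of 93 results that did not pass, 71 stayed so, 22 passed under at least 1 and 39 changed sign under at least 1. The cause was not tested unless stated. Without scaling the median of all genes moved by -0.15 for CDDO-Me in KEAP1 KO CM, the count of genes for NRF2 KO CM against media was 0, and 3 members were called with CDDO-Me in WT CM and 3 in KEAP1 KO CM. The share of calls that were higher moved from 58.9% to 48.2% for WT CM against media, 61.5% to 44.2% for WT CM against NRF2 KO CM, 49.9% to 39.1% and 50.5% to 34.6% for CDDO-Me in WT CM and KEAP1 KO CM, and 56.9% to 40.5% for the response in KEAP1 KO CM against media. With no filter on low values, the genes called were 2 for NRF2 KO CM against media, 1 for KEAP1 KO CM against WT CM and 1 for the response in NRF2 KO CM against media, and 0 members were called with CDDO-Me in NRF2 KO CM. A mean of at least 5 TPM (Stat4 was then not tested) or a pseudocount of 0.1 left 1 member there.

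With the replicate block, genes called against media were 1734, 1770 and 4 with WT, KEAP1 KO and NRF2 KO CM, 2568 for WT CM against NRF2 KO CM and 1466 for CDDO-Me in media. Target, receptor and inhibitor genes were not refitted with the block. It changed 1 call among the STAT and JAK gene values printed, Stat4 in WT CM against NRF2 KO CM (limma adjusted p = 0.038 with the block and 0.0815 without). In the contrasts not named as paired, not every same-numbered pair passed 0.1. Their same-numbered deviations were still correlated on average. The mean was 0.256 for CDDO-Me in WT CM and 0.291 in KEAP1 KO CM, against -0.126 and -0.141 for different numbers. The block gave 4633 and 4819 genes there, against 3798 and 3929 without it. The sources do not state whether samples with the same number were paired.

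With array weights, which give libraries unlike weight, genes called were 4126, 5024 and 8 for WT, KEAP1 KO and NRF2 KO CM against media, 1081 for KEAP1 KO CM against WT CM, 3401 for WT CM against NRF2 KO CM, 3590, 7140, 7017 and 3033 for CDDO-Me in media, WT, KEAP1 KO and NRF2 KO CM, and 5394, 5376, 7 and 18 for the 4 differences in response. Members called were then 6 for KEAP1 KO CM against media, 1 against WT CM, 6 for CDDO-Me in media, and 5 for each response in WT CM and KEAP1 KO CM against media. With only the groups compared in the fit, genes called were 2044, 2186 and 0 for the 3 CM against media, 162 for WT CM against NRF2 KO CM (0 members), 1606 for CDDO-Me in media (1 member), 142 in NRF2 KO CM (0 members), and 3684 and 3450 for the responses in WT CM and KEAP1 KO CM against media (5 members each). With both NRF2 KO CM replicate 3 libraries left out, they were 2595, 2951 and 0 for the 3 CM against media, 2118 for CDDO-Me in media (1 member), 5926 in WT CM, 6145 in KEAP1 KO CM, and 3916 and 4040 for the 2 responses (5 members each).

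Leaving out 1 library at a time gave 606 to 1569, 666 to 1812 and 0 to 2 genes with WT, KEAP1 KO and NRF2 KO CM against media, 0 to 1 for KEAP1 KO CM against WT CM, 805 to 2431 for WT CM against NRF2 KO CM, 516 to 1308 for CDDO-Me in media, and 0 to 1 for each response of NRF2 KO CM against media and KEAP1 KO CM against WT CM. Members called ranged from 3 to 5 with CDDO-Me in WT CM, 0 to 2 in NRF2 KO CM and 3 to 5 for the response in KEAP1 KO CM against media. Among the values that changed sign, those that the text gives one by one include Stat6 with CDDO-Me in KEAP1 KO CM (-0.0060 without scaling), Stat2 with CDDO-Me in NRF2 KO CM (-0.069 with array weights, -0.0095 to 0.067 on leaving out 1 library) and its response against media (-0.061 with array weights), and Tyk2 with CDDO-Me in NRF2 KO CM (-0.057 to 0.47) and its response against media (-0.0051 to 0.52) on leaving out 1 library. Depth is unknown, and Stat4 lay near the filter, where the +1 scale understates changes.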
